A study of Bos taurus with 12 samples.

Results

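The proteasome is the protease complex that breaks down proteins marked with ubiquitin. Its barrel-shaped core particle cuts the protein chain, and a regulatory cap at the end of the barrel binds the ubiquitin, unfolds the protein with a ring of ATPases and feeds it in. In cells exposed to interferon, and in leukocytes without it, the 3 catalytic subunits of the core can be replaced by PSMB8, PSMB9 and PSMB10, and the core can be capped by the activator of PSME1 and PSME2; this form, the immunoproteasome, makes many of the peptides shown on class I molecules. In ruminants the endometrium is exposed to interferon from the conceptus once one is present, whereas the biopsies described here came from cycling animals before any transfer. Roles of single genes are those described for the human and yeast proteins.

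The 39 proteasome genes described here are those whose gene symbol on the array starts with PSMA, PSMB, PSMC, PSMD, PSME, PSMF or PSMG followed by a number, out of 6781 named genes measured in the series. PSME3IP1, whose symbol has further letters after that number and which encodes an interacting protein, was set apart. A probe set is the array's set of short probes for 1 transcript, and it counted as measured if 3 or more of the 12 arrays exceeded a log2 value of 4. The annotation holds 45 such probe sets of these 39 genes, 44 of which passed, and all 39 genes were above that level on all 12 arrays. The lowest value of any of them was 5.95 (PSMD13, pool 3 of NPd14), and the probe set left out, a second one for PSMC5, reached at most 2.06. Each gene is represented by its brightest probe set, and for PSMB2, PSMC2, PSMC6, PSMD4 and PSMD6 there was a further one, used below as a check. They comprise 6 core alpha genes, 7 core beta genes, 6 cap ATPases, 7 other cap subunits, the 5 immunoproteasome genes, 3 chaperones of cap assembly, 3 chaperones of core assembly, the inhibitor PSMF1 and the activator PSME4. PSMA2, PSMD3, PSMD7, PSMD8, PSMD12, PSME3 and PSMG4 are not named by the array annotation used and were not analysed here.

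The samples were uterine lining biopsies of Simmental heifers, each taken 1 cycle ahead of an embryo transfer and sorted afterwards by how that transfer ended. The 4 groups were CDd14 (day 14 of the cycle, later delivery of a calf), NPd14 (day 14, later return to heat without pregnancy), CDd7 (day 7, later delivery of a calf) and NPd7 (day 7, later return to heat without pregnancy). Each group had 3 arrays, each of RNA from 1 pool of biopsies, and the labels do not say which heifers entered a pool. The p-values therefore measure only the spread between pools, the number of arrays limits the precision, and no treatment or genotype separated the groups.

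The epithelial marker EPCAM was bright on every array, with mean log2 values of 15.44 in CDd14, 15.36 in NPd14, 15.30 in CDd7 and 15.33 in NPd7. Arrays of 1 group correlated at 0.922 to 0.989 over the measured probe sets and arrays of different groups at 0.862 to 0.981. In bulk tissue, fewer cells of a type and less RNA per cell cannot be told apart.

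Pool 3 of NPd14 stood apart for the proteasome genes. It was the lowest of the 12 arrays for 31 of the 39 genes (79.5%), for 23 of the 26 core and cap genes and for 4 of the 5 immunoproteasome genes, whereas it was the lowest array for 21.8% of all 6781 genes. Its 13 core genes lay on average 0.53 below their own 12-array means on the log2 scale and its 13 cap genes 0.56 below, against 0.14 below for all genes. The other NPd14 pools lay at -0.08 (pool 1) and 0.11 (pool 2) for the core and at -0.27 (pool 1) and 0.09 (pool 2) for the cap. Class medians, spans, correlations and selected single-gene estimates that involve NPd14 are therefore given with and without this pool, as an alternative chosen after seeing the data. Counts of separated genes and the summaries of markers and other pathway genes are given only with it. So are some further counts and estimates.

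**Figure D1:**
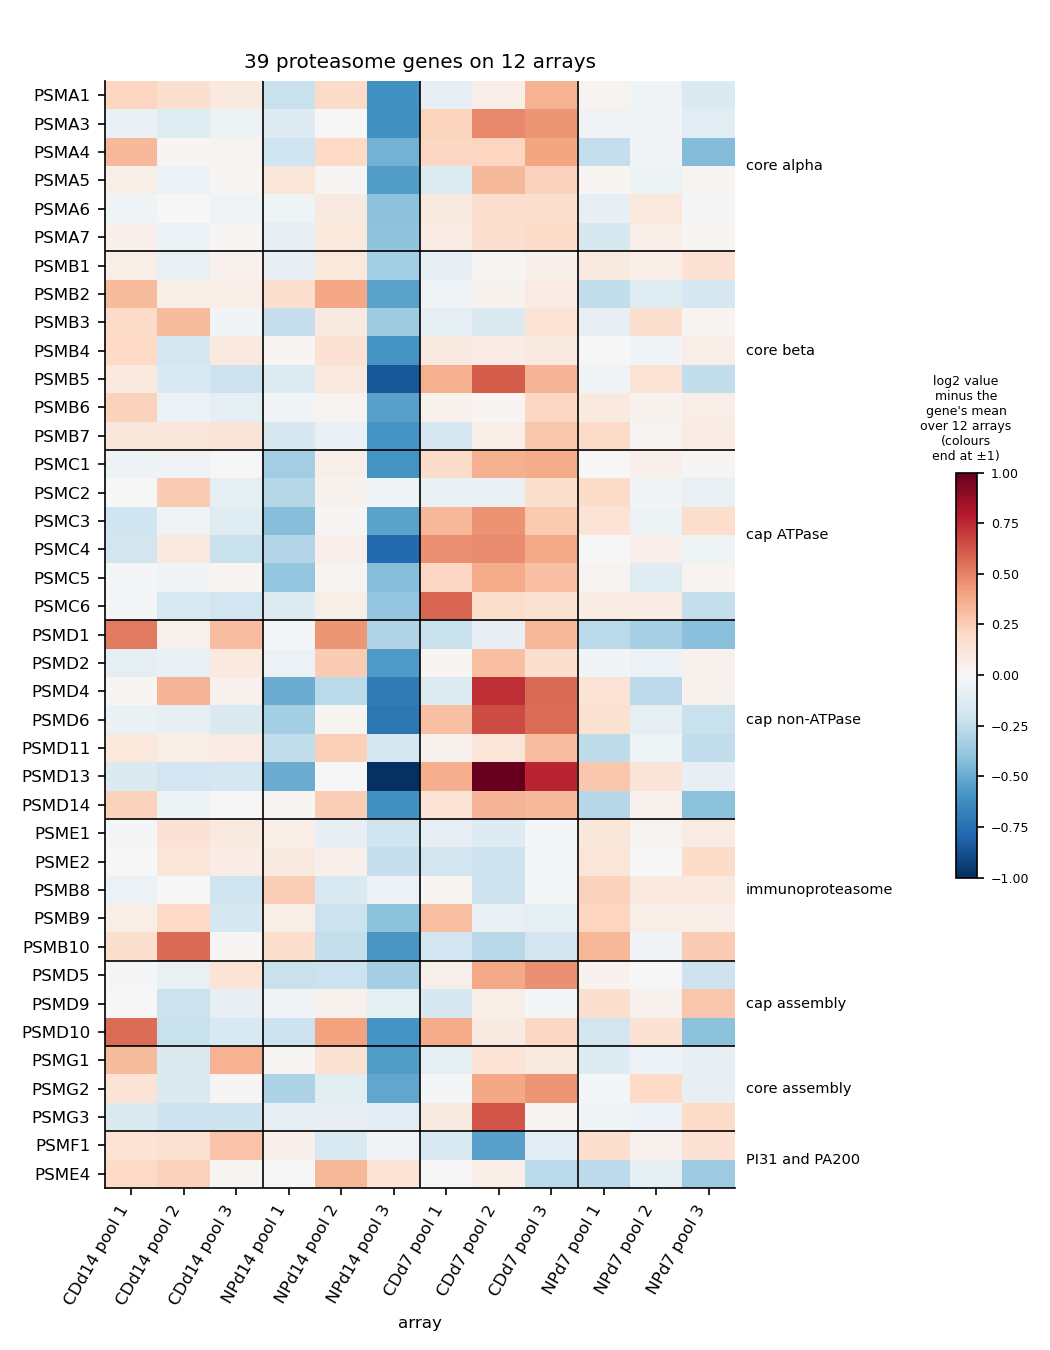
Each row is a proteasome gene and each column an array, coloured by the log2 value minus the gene's mean over the 12 arrays, from blue (low) to red (high), with colours ending at 1 above and below; lines separate groups and classes. Pool 3 of NPd14 is the lowest array in 31 of 39 rows, and the cap rows are mostly red in the 3 CDd7 columns.

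Proteasome genes varied somewhat less across the series than all genes, which were not matched to them for brightness. The median gene among the 39 spanned 0.864 log2 units between its lowest and highest array, against 1.04 for all genes and 0.998 for the 6349 genes above the level on all 12 arrays. PSMD13, a structural subunit of the cap, was the exception with a span of 2.44, and 19.2% of all genes spanned over 2. Without pool 3 of NPd14 the span of PSMD13 was 1.51, still the widest of the 39, and the median spans were 0.638 for the proteasome genes and 0.968 for all genes. No proteasome gene differed by over 1 log2 unit in any of the comparisons below, where 3.33% to 15.1% of all genes did. The median absolute difference between CD and NP at day 14 was larger for the proteasome genes (0.195) than for all genes (0.148). In the other comparisons it was smaller. Core and cap genes moved together over the arrays. After the group means were removed, the mean correlation over pairs of genes was 0.766 within the core, 0.605 between core and cap and 0.55 within the cap, against 0.00891 over pairs of all genes. Immunoproteasome genes correlated at 0.656 with each other, at 0.279 with the core and at 0.135 with the cap. Much of this rested on pool 3 of NPd14: without it the means were 0.42 within the core, 0.352 between core and cap, 0.423 within the cap, 0.54 within the immunoproteasome genes, -0.34 between core and immunoproteasome and -0.296 between cap and immunoproteasome. These correlations describe 12 arrays that share their normalization, and no test was made of them.

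Among single genes, PSMC1, a cap ATPase, followed the mean of the other core and cap genes most closely, with a correlation of 0.94 over the 12 arrays. The core alpha genes PSMA7 and PSMA6 followed at 0.92 each. At the other end PSMF1, which encodes a proteasome inhibitor that binds the core, had a correlation of -0.34 with that mean and PSMB8 one of -0.26. Without pool 3 of NPd14 the correlations were 0.89 for PSMC1, 0.81 for PSMA7, 0.75 for PSMA6, -0.67 for PSMF1 and -0.62 for PSMB8. PSMC1 was still the highest, but PSMD6 (0.87), PSMC5 (0.85) and PSMA3 (0.84) were among those that passed PSMA7. PSME1 was then the lowest (-0.70), and PSMB10 (-0.65) and PSME2 (-0.64) also lay below PSMB8. Group means were not removed for these single-gene correlations.

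The first question of the design is whether tissue of later calf delivery differed from tissue of later failure at day 7. None of the 39 proteasome genes passed an adjusted p of 0.05 (limma, Benjamini-Hochberg over 13449 probe sets), and 3.48% of all genes were called. An unadjusted p under 0.05 was found for 9 of the 39 (23.1%) and for 30.4% of all genes. The direction of the estimates was not the same in all classes. The CD minus NP estimate was positive for 12 of 13 cap genes (median 0.34 on the log2 scale) and for 10 of 13 core genes (median 0.14; 8 of 13 and 0.072 after quantile normalization), and it was negative for all 5 immunoproteasome genes (median -0.21). Over all genes 48.7% of the estimates were positive and the median was -0.01. For 17 of the 39 genes every CDd7 array lay above every NPd7 array, as was so for 16.7% of all genes, and for 6 every CDd7 array lay below, as for 18.6% of all genes.

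**Figure D2:**
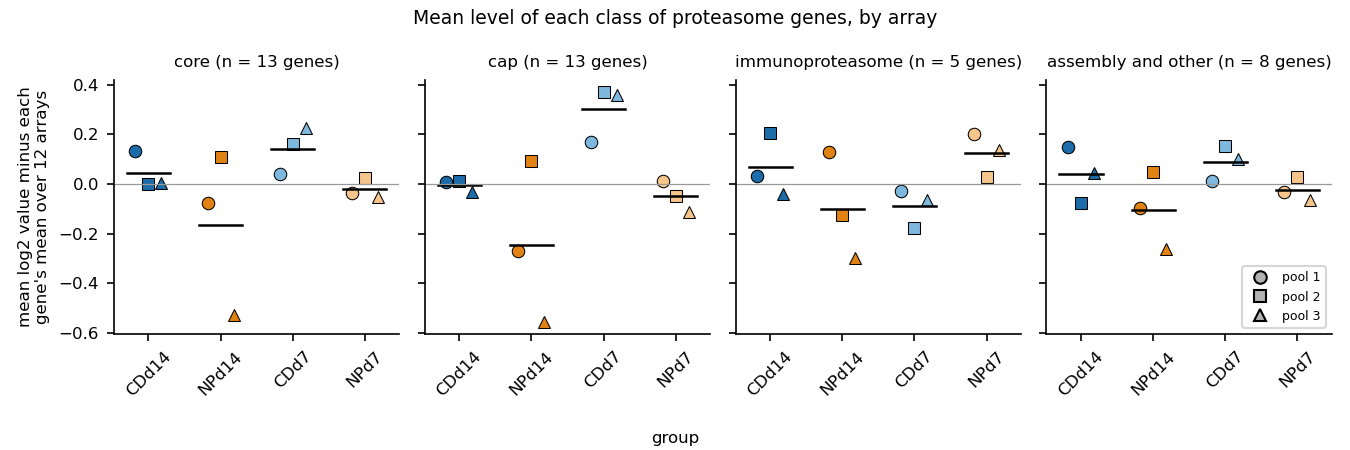
Each point is 1 array (circle, square and triangle for pools 1, 2 and 3), placed at the mean over the genes of a class of the log2 value minus the gene's 12-array mean; the bar is the group mean. The cap averaged 0.30 in CDd7 and -0.05 in NPd7, the immunoproteasome -0.09 in CDd7 and 0.12 in NPd7, and pool 3 of NPd14 lies lowest in each panel.

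Of the 17 genes separated upward at day 7, 10 were cap genes. As a class mean of deviations from the 12-array means, the cap stood at 0.30 ± 0.11 in CDd7 and -0.05 ± 0.06 in NPd7 (SD, n = 3 pools each), with 10 of its 13 genes separated. Among the ATPases these were PSMC1, PSMC3, PSMC4, PSMC5 and PSMC6, with estimates from 0.26 (PSMC3) to 0.43 (PSMC4). Among the other cap subunits they were PSMD1, a large scaffold subunit, PSMD14, which removes ubiquitin from the substrate, and the structural lid subunits PSMD6, PSMD11 and PSMD13. PSMD13 had the largest estimate of the 39 genes, 0.61 ± 0.31 (SE), with an adjusted p of 0.206 by limma. The groups overlapped for the ATPase PSMC2 and for PSMD2 and PSMD4, a scaffold subunit and a ubiquitin receptor.

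PSMD6 had the smallest p of the 39 genes at day 7. Its log2 values were 9.05, 9.40 and 9.30 in CDd7 pools 1 to 3, against 8.90, 8.65 and 8.52 in NPd7 pools 1 to 3. The groups did not overlap, and CD was higher by 0.56 ± 0.19 (SE; 1.47-fold), with an adjusted p of 0.0905 by limma. A second, much dimmer probe set for PSMD6 went the other way: it read 4.30, 3.85 and 4.63 in CDd7 against 4.96, 5.22 and 5.09 in NPd7, a difference of -0.83 ± 0.18 (SE) that passed the test (adjusted p = 0.0405 by limma). The direction for PSMD6 thus depended on the probe set. The 2 probe sets of PSMC2 and PSMC6 also differed at day 7: the brighter PSMC2 probe set gave -0.01 and the other 0.43, and the brighter PSMC6 probe set gave 0.33 and the other -0.02, none of which passed.

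In the core, the class mean was 0.14 ± 0.10 in CDd7 and -0.02 ± 0.04 in NPd7 (SD, n = 3 pools each). The alpha genes form the outer rings and the gate of the barrel, and all 6 estimates were positive, from 0.14 to 0.51. PSMA3 had 13.26, 13.52 and 13.48 in CDd7, against 13.00, 13.01 and 12.92 in NPd7. Every CDd7 pool was above every NPd7 pool, and the difference of 0.44 ± 0.15 (SE; 1.36-fold) had an adjusted p of 0.0975 by limma. It passed, at 0.0476, when pool 3 of NPd14, an array of neither group, was left out of the fit. PSMA4 and PSMA7 were also separated, whereas PSMA1, PSMA5 and PSMA6 overlapped.

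The beta genes, which hold the catalytic sites, were mixed. PSMB5, the subunit of the chymotrypsin-like activity, was higher in every CDd7 pool than in any NPd7 pool (0.48 ± 0.22 SE, adjusted p = 0.181 by limma). PSMB6 and PSMB7, the other catalytic subunits, had estimates of 0.02 and -0.04. Of the non-catalytic beta subunits, PSMB2 (0.21) and PSMB4 (0.07) were separated upward, PSMB1 (-0.11) was separated downward, and PSMB3 (-0.07) overlapped.

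**Figure D3:**
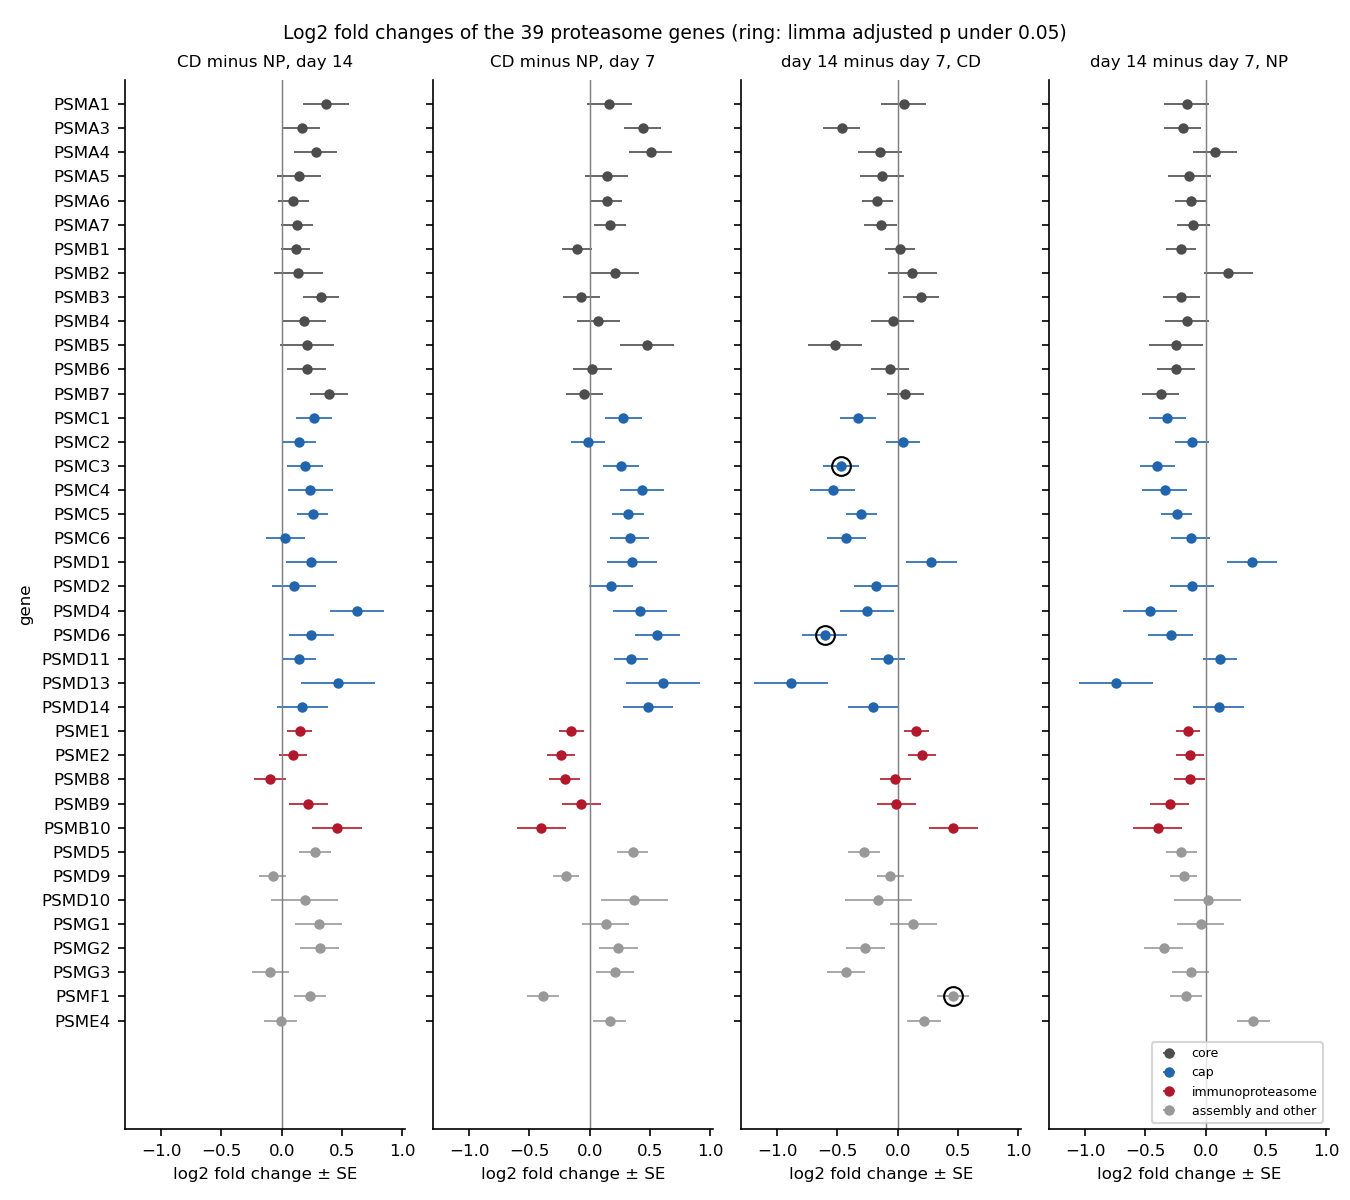
Points are log2 fold changes of the 39 genes with their standard errors from the limma model, 1 panel per comparison, coloured by class; rings mark an adjusted p under 0.05. At day 7 the cap lies to the right of 0 in 12 of 13 genes and the immunoproteasome to the left in 5 of 5, and the 3 rings stand in the comparison of the days in CD.

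The 5 immunoproteasome genes were lower in CDd7 by estimate, and none passed the test. PSMB10, which replaces PSMB7, had the largest difference. Its values were 9.53, 9.44 and 9.54 in CDd7, against 10.05, 9.68 and 9.97 in NPd7. The CDd7 pools lay together below all NPd7 pools, by 0.40 ± 0.21 (SE; 1.32-fold lower), with an adjusted p of 0.214 by limma. PSMB8, which replaces PSMB5, had 10.49, 10.26 and 10.45 in CDd7, against 10.70, 10.57 and 10.56 in NPd7. The groups did not overlap, and the difference was -0.21 ± 0.13 (SE; adjusted p = 0.294 by limma). PSMB9, which replaces PSMB6, had 11.43, 11.05 and 11.02 in CDd7, against 11.34, 11.18 and 11.19 in NPd7. Here the groups overlapped, with CDd7 pool 1 the highest of the 6 arrays, and the difference was -0.07 ± 0.16 (SE; adjusted p = 0.807 by limma).

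The activator genes PSME1 and PSME2 behaved like PSMB8. PSME1 had 12.69, 12.64 and 12.75 in CDd7, against 12.88, 12.80 and 12.85 in NPd7. PSME2 had 9.99, 9.97 and 10.15 in CDd7, against 10.29, 10.17 and 10.36 in NPd7. Neither pair of groups overlapped, and the differences were -0.15 ± 0.10 for PSME1 (adjusted p = 0.341 by limma) and -0.24 ± 0.12 for PSME2 (adjusted p = 0.204), each with its SE. Within each array, the mean deviation of the 5 genes minus that of the 26 core and cap genes was -0.31 ± 0.16 in CDd7, with pools from -0.44 to -0.13, and 0.16 ± 0.10 in NPd7, with pools from 0.04 to 0.22 (SD, n = 3 pools each). The same difference for each catalytic pair was -0.50 in CDd7 and 0.19 in NPd7 for PSMB8 minus PSMB5, -0.27 in CDd7 and 0.09 in NPd7 for PSMB10 minus PSMB7, and -0.04 in CDd7 and 0.05 in NPd7 for PSMB9 minus PSMB6.

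Markers of other cell types moved with this comparison. Of 14 leukocyte markers 13 were measured, and all 13 had a lower estimate in CDd7 (median -0.98), of which CD8A and LCK passed the test. Their mean deviation was -0.68 in CDd7 (-1.32 to -0.03) and 0.28 in NPd7 (-0.28 to 0.80). Of 8 stromal markers 7 were measured, with a median difference of -3.05 and 5 that passed, and their mean deviation was -1.14 in CDd7 (-1.72 to -0.60) and 1.70 in NPd7 (1.16 to 2.43). CLDN5, the 1 endothelial marker measured of 4, was higher in CDd7, with 7.21, 5.78 and 6.17 against 3.21, 4.75 and 4.08 in NPd7 (2.37 ± 0.48 SE, adjusted p = 0.0368 by limma). It was above log2 4 on 5 of the 12 arrays, all of day 7, and counted as measured only through the CDd7 pools. With NPd7 pool 1 below that level, the size of the difference is uncertain. Of 7 epithelial markers 6 were measured, with 2 positive and 4 negative estimates (median -0.09), 2 at an unadjusted p under 0.05 and 0 called. CLDN4 (0.99) and CDH1 (0.27) were separated upward and KRT18 (-0.43) downward. KRT19 (-0.50), MUC1 (-0.16) and EPCAM (-0.03) overlapped. As a measure of RNA integrity and labelling, 3′ minus 5′ probe sets of the array's 3 endogenous control transcripts was 1.65 ± 0.20 log2 units in CDd7 and 1.94 ± 0.19 in NPd7 (SD, n = 3 pools each). For the 3 control transcripts that are added to the sample it was 4.74 ± 0.07 in CDd7 and 5.06 ± 0.15 in NPd7 (SD, n = 3 pools each). Their part in the proteasome differences was not tested.

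The genes of assembly and regulation were as mixed. PSMD5, a chaperone of the cap's ATPase ring, was higher in every CDd7 pool than in any NPd7 pool (0.36 ± 0.13 SE, adjusted p = 0.110 by limma). The other chaperones of that ring, PSMD10 and PSMD9, had estimates of 0.37 and -0.20 with overlapping groups, and the chaperones of the core, PSMG1, PSMG2 and PSMG3, had estimates of 0.13, 0.24 and 0.21. PSME4, an activator that binds the core without ubiquitin, had 0.17. PSMF1 was lower in every CDd7 pool: it had 10.66, 10.27 and 10.70 in CDd7, against 10.98, 10.85 and 10.96 in NPd7. The difference was -0.39 ± 0.13 (SE; 1.31-fold lower), with an adjusted p of 0.0934 by limma.

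The same question at day 14 gave 0 of 39 genes past the threshold in limma, and 0.0147% of all genes were called. At an unadjusted p under 0.05 there were 3 of the 39 (7.69%), against 6.34% of all genes. By the brightest probe sets, all 26 core and cap genes had a positive CD minus NP estimate (core median 0.19, cap median 0.24). So did 4 of the 5 immunoproteasome genes (median 0.15), against 55.4% of all genes (median 0.03). The dim probe set of PSMD6 went the other way, at -0.74 ± 0.18 (SE; adjusted p = 0.371 by limma), and its groups did not overlap. The second probe sets of PSMB2, PSMC2, PSMC6 and PSMD4 gave positive estimates. With the mean over a gene's probe sets, 12 of 13 cap estimates were positive. The uniform direction of the brightest probe sets rested on pool 3 of NPd14. Without it, 5 of 13 core estimates and 10 of 13 cap estimates were positive, with medians of -0.01 and 0.08, 3 of 5 immunoproteasome estimates were positive (median 0.08), and 0 genes had an unadjusted p under 0.05. The control transcripts differed here too, with 3′ minus 5′ at 1.97 ± 0.11 in CDd14 and 2.32 ± 0.17 in NPd14 for the endogenous ones (2.42 in pool 3 and 2.41 in pool 1 of NPd14) and at 5.13 ± 0.12 in CDd14 and 5.38 ± 0.14 in NPd14 for the added ones (SD, n = 3 pools each). The median difference was -0.04 over 13 leukocyte markers and -0.69 over 7 stromal markers, with 0 called and 0 at an unadjusted p under 0.05. It was 0.17 over 6 epithelial markers and -0.55 for CLDN5, with 0 called. CLDN5 lay below log2 4 on every day 14 array, which also limits its estimates between the days and in the interaction. The part of the markers and control transcripts in the result was not tested.

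The groups did not overlap at day 14 for 4 genes higher in CDd14 (PSMB7, PSMD4, PSMD5 and PSMF1) and 1 lower (PSMG3), where 4.85% of all genes were separated upward and 5.72% downward. The ubiquitin receptor PSMD4 had the smallest p. It had 11.20, 11.51 and 11.22 in CDd14, against 10.68, 10.90 and 10.47 in NPd14. CD was higher by 0.62 ± 0.23 (SE; 1.54-fold; adjusted p = 0.576 by limma), the estimate was 0.52 without pool 3 of NPd14, and its second probe set gave 0.78. PSMB7, the subunit of the trypsin-like activity, had 12.27, 12.26 and 12.28 in CDd14, against 11.99, 12.08 and 11.56 in NPd14. The CDd14 pools were almost equal and all NPd14 pools lay below them, pool 3 the most. The difference was 0.39 ± 0.16 (SE; 0.23 without pool 3 of NPd14), with an adjusted p of 0.607 by limma.

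For the immunoproteasome at day 14, PSMB10 had 9.88, 10.28 and 9.73 in CDd14, against 9.89, 9.48 and 9.13 in NPd14. The groups overlapped, CDd14 pool 2 was the highest of all 12 arrays and NPd14 pool 3 the lowest, and the difference was 0.46 ± 0.21 (SE; adjusted p = 0.675 by limma), or 0.28 without that pool. PSMB8 had 10.41, 10.47 and 10.27 in CDd14, against 10.71, 10.32 and 10.40 in NPd14, and PSMB9 had 11.19, 11.32 and 10.95 in CDd14, against 11.19, 10.91 and 10.71 in NPd14. Both pairs of groups overlapped, with differences of -0.10 for PSMB8 and 0.22 for PSMB9. PSME1 had 12.76, 12.91 and 12.87 in CDd14, against 12.84, 12.69 and 12.57 in NPd14. PSME2 had 10.17, 10.30 and 10.24 in CDd14, against 10.26, 10.23 and 9.94 in NPd14. These also overlapped, with differences of 0.15 for PSME1 and 0.09 for PSME2, neither of which passed. Without pool 3 of NPd14 the differences were -0.13 for PSMB8, 0.11 for PSMB9, 0.08 for PSME1 and -0.0069 for PSME2, the last of these having turned its sign.

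The comparison of the days within CD gave the only calls among the brightest probe sets of these genes. Of the 39 genes 3 passed in limma (7.69%), 1 higher and 2 lower at day 14, and 11 (28.2%) had an unadjusted p under 0.05, against 39.3% of all genes. Of all genes, 24.1% were called, 9.87% higher and 14.2% lower, so the share among the proteasome genes was under that of the array as a whole. The split was 1 higher and 4 lower with each array centred on its median, and 1 higher and 1 lower after quantile normalization. This comparison shares the CDd7 arrays with the day 7 comparison above, and the estimates of the 2 are not independent.

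PSMF1 was higher at day 14. It had 10.95, 10.96 and 11.10 in CDd14, against 10.66, 10.27 and 10.70 in CDd7. Every CDd14 pool lay above every CDd7 pool, and CDd7 pool 2 was the lowest of the 12 arrays. The rise was 0.46 ± 0.13 (SE; 1.37-fold; adjusted p = 0.0316 by limma). PSMF1 stayed past the threshold in 8 of the 12 fits that left out 1 array, with estimates from 0.32 to 0.54. It was called in each fit without an NP array, where the estimate cannot change. Among the fits without a CD array it was called only without CDd7 pool 1 or pool 3. With only the CD arrays in the fit it was not called.

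**Figure D4:**
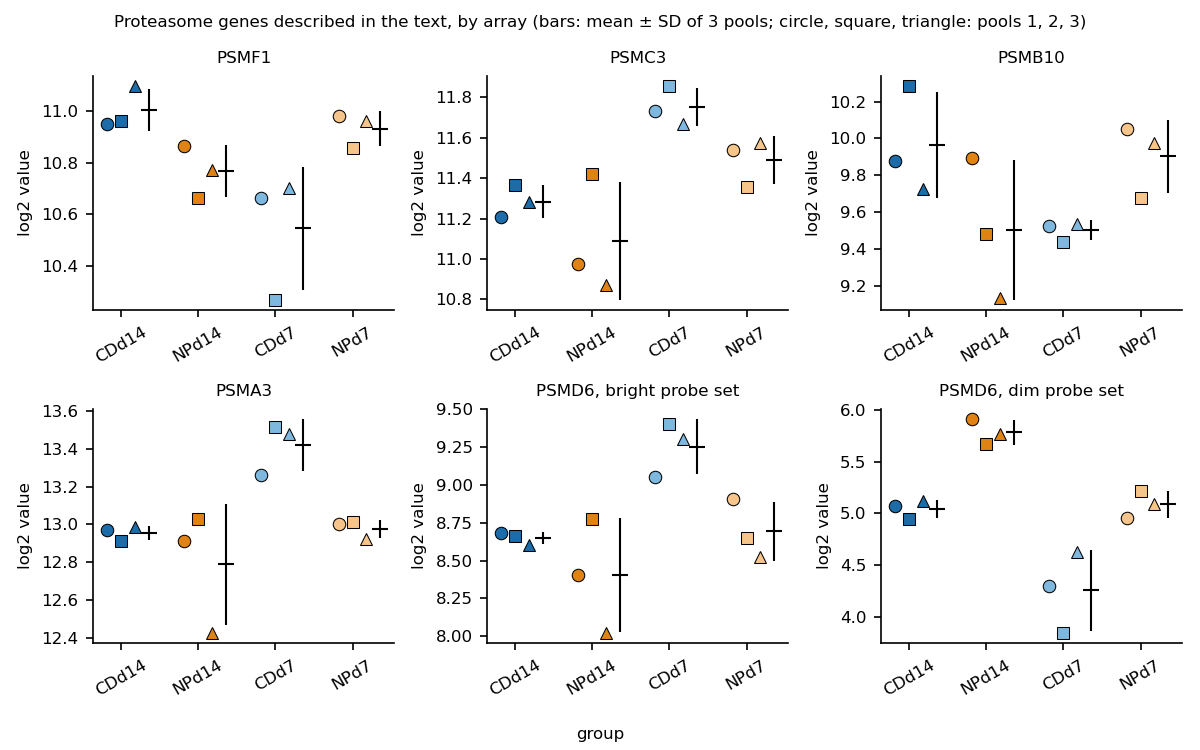
Points are the log2 values of single arrays (circle, square and triangle for pools 1, 2 and 3), with the mean and SD of the 3 pools beside them, for PSMF1, PSMC3, PSMB10, PSMA3 and both probe sets of PSMD6; the axes do not start at 0. PSMF1 lies between 10.95 and 11.10 in CDd14 and between 10.27 and 10.70 in CDd7, and the bright and dim probe sets of PSMD6 run in opposite directions.

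PSMC3, an ATPase of the cap, fell to 11.21, 11.37 and 11.28 in CDd14, against 11.73, 11.86 and 11.67 in CDd7. The groups did not overlap, and the difference was -0.47 ± 0.15 (SE; 1.38-fold lower; adjusted p = 0.0439 by limma). PSMD6 fell to 8.68, 8.66 and 8.60 in CDd14, against 9.05, 9.40 and 9.30 in CDd7. The difference was -0.60 ± 0.19 (SE; 1.52-fold lower; adjusted p = 0.0414 by limma), with no overlap. The dim probe set of PSMD6 again went the other way, with 5.07, 4.95 and 5.12 in CDd14 against 4.30, 3.85 and 4.63 in CDd7, a rise of 0.79 ± 0.18 (SE; adjusted p = 0.0137 by limma). Over the 12 fits that left out 1 array, PSMD6 was called in 4 and PSMC3 in 3. The number of genes called was 0 without CDd7 pool 2 or any single CDd14 pool, 1 without NPd7 pool 3 or NPd14 pool 1, 7 without NPd14 pool 3 and 8 without NPd14 pool 2.

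Around these calls, 11 of 13 cap estimates were negative (median -0.30), 8 of 13 core estimates were negative (median -0.06), and 3 of 5 immunoproteasome estimates were positive (median 0.15), where 49.6% of all genes had a positive estimate. For 12 of the 39 genes every CDd14 pool lay below every CDd7 pool, where 22.8% of all genes did so, and for 4 every CDd14 pool lay above, where 22.1% did. The 12 included 5 of the 6 ATPases, PSMB5 and PSMA3. The second probe set of PSMC6, 1 of these ATPases, gave 0.12 with overlapping groups. That of PSMC2, the ATPase not among them, gave -0.28 with groups that did not overlap, and neither passed. PSMB5 had 12.17, 11.92 and 11.86 in CDd14, against 12.42, 12.67 and 12.41 in CDd7 (adjusted p = 0.113 by limma), and PSMA3 had 12.97, 12.91 and 12.98 in CDd14, against 13.26, 13.52 and 13.48 in CDd7 (adjusted p = 0.0502). PSMD13 had the largest estimate, with 7.23, 7.18 and 7.20 in CDd14 against 7.74, 8.39 and 8.14 in CDd7. Its difference of -0.89 ± 0.31 (SE; 1.85-fold lower) had an adjusted p of 0.0591 by limma, the CDd14 pools being almost equal and the NPd14 pools of the same fit spanning 5.95 to 7.37.

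The 4 genes separated upward in CD were PSMF1, PSMB10, PSME1 and PSME2. PSMB10 had a mean of 9.96 ± 0.29 in CDd14 and 9.50 ± 0.05 in CDd7 (SD, n = 3 pools each), a difference of 0.46 ± 0.21 (SE) with an adjusted p of 0.123 by limma. PSME1 and PSME2 differed by 0.15 and 0.20, with adjusted p of 0.297 for PSME1 and 0.232 for PSME2, and PSMB8 and PSMB9 by -0.02 and -0.01. Leukocyte markers moved the same way, with 12 of 13 estimates positive (median 0.85) and 2 called, CD53 and LCK. All 6 epithelial estimates were positive (median 0.39), with CDH1 called (0.44, adjusted p = 0.0342 by limma), as were 5 of 7 stromal estimates (median 0.33), with PDGFRA called (1.60, adjusted p = 0.0173). CLDN5 was called lower (-4.48, adjusted p = 0.00176 by limma), with 2.05, 2.03 and 1.66 in CDd14. These values lie below the log2 level of 4, so the size of its fall is uncertain. For the control transcripts, 3′ minus 5′ was 1.97 ± 0.11 in CDd14 and 1.65 ± 0.20 in CDd7 for the endogenous ones, and 5.13 ± 0.12 in CDd14 and 4.74 ± 0.07 in CDd7 for the added ones (SD, n = 3 pools each). Their part in the result was not tested.

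The days within NP gave 0 of 39 genes past the threshold in limma, and 0.133% of all genes were called. At an unadjusted p under 0.05 there were 4 of the 39 (10.3%), against 16.5% of all genes. Estimates were negative for 11 of 13 core genes (median -0.16), 10 of 13 cap genes (median -0.24) and 5 of 5 immunoproteasome genes (median -0.15), against a median of -0.06 over all genes. Without pool 3 of NPd14, 5 of 13 core, 9 of 13 cap and 5 of 5 immunoproteasome estimates were negative, with medians of 0.03, -0.12 and -0.10. The immunoproteasome estimates were -0.40 for PSMB10, -0.30 for PSMB9, -0.15 for PSME1 and -0.13 for both PSMB8 and PSME2, and none passed. Every NPd14 pool lay above every NPd7 pool for 1 gene, PSME4, and below for 6 (PSMB6, PSMB7, PSMD4, PSMD5, PSMG2 and PSMG3), where 7.33% of all genes were separated upward and 15.3% downward. PSME4 had 11.42, 11.74 and 11.55 in NPd14, against 11.15, 11.32 and 11.05 in NPd7, a difference of 0.39 ± 0.14 (SE; adjusted p = 0.213 by limma). PSMC3 differed by -0.40 ± 0.15 (SE), with 10.98, 11.42 and 10.87 in NPd14 against 11.54, 11.35 and 11.58 in NPd7 (adjusted p = 0.231 by limma). PSMD13 had 6.88, 7.37 and 5.95 in NPd14, against 7.64, 7.50 and 7.29 in NPd7, and its difference of -0.75 ± 0.31 (SE) had an adjusted p of 0.272 by limma. PSMC3 and PSMD13 overlapped between the days through pool 2 of NPd14. Without pool 3 of NPd14 the differences were 0.41 for PSME4, -0.29 for PSMC3 and -0.35 for PSMD13, none of which passed. With all arrays, the bright probe set of PSMD6 gave -0.29 between the days in NP. Its dim probe set gave 0.69 ± 0.18 (SE; adjusted p = 0.132 by limma), with groups that did not overlap. The second probe set of PSMC6 also turned its sign (0.05 against -0.13), and those of PSMB2, PSMC2 and PSMD4 did not. Among the markers, 5 of 7 stromal estimates were negative (median -2.24, 5 at an unadjusted p under 0.05), 4 of 13 leukocyte estimates were positive (median -0.07), 4 of 6 epithelial estimates were positive (median 0.05) and CLDN5 had -1.55, with 0 called. For the control transcripts, 3′ minus 5′ was 2.32 ± 0.17 in NPd14 and 1.94 ± 0.19 in NPd7 for the endogenous ones, and 5.38 ± 0.14 in NPd14 and 5.06 ± 0.15 in NPd7 for the added ones (SD, n = 3 pools each). Their part in the result was not tested.

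The last comparison asks whether the day effect differed between CD and NP, as a test of the interaction. It called 0 of 39 proteasome genes in limma, and 0 of all genes. At an unadjusted p under 0.05 there were 2 of the 39 (5.13%), against 14.5% of all genes. Those 2 were PSMB10, with a day effect 0.86 ± 0.29 (SE) more positive in CD (adjusted p = 0.290), and PSMF1, with one 0.62 ± 0.19 (SE) more positive in CD (adjusted p = 0.263). PSME1 followed at 0.30 ± 0.15 (SE; adjusted p = 0.371 by limma). All 5 immunoproteasome estimates were positive (median 0.30; 0.23 without pool 3 of NPd14), 11 of 13 cap estimates were negative (median -0.10; -0.28 without that pool), and 7 of 13 core estimates were positive (median 0.00; 5 of 13 and -0.18 without that pool). The direction for the cap and core also turned on pool 2 of NPd14: without it 8 of 13 cap estimates were positive (median 0.095) and 10 of 13 core estimates (median 0.12). Without pool 3 of NPd14 the interaction was 0.68 for PSMB10 and 0.63 for PSMF1, and neither passed. Over all genes the median was 0.04. Interaction estimates were positive for 12 of 13 leukocyte markers (median 0.90, 2 at an unadjusted p under 0.05), for 7 of 7 stromal markers (median 2.33, 5 at that level) and for 4 of 6 epithelial markers (median 0.26), and CLDN5 had -2.92, with 0 called. Their part in the result was not tested.

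Other genes of the pathway gave 3 calls, all between the days in CD, where 24.1% of all genes were called. Of 17 listed partners of the proteasome outside the PSM names, 12 were measured and 1 was called, FBXO7, a ubiquitin ligase subunit that in human cells binds the protein of PSMF1, and it rose at day 14 in CD. It had 11.35, 11.87 and 11.60 in CDd14, against 10.71, 10.55 and 11.15 in CDd7 (0.80 ± 0.25 SE, adjusted p = 0.0421 by limma). Of 17 ubiquitin and shuttle genes, 9 were measured and 1 was called in the same comparison, UBA6, a ubiquitin-activating enzyme (0.78 ± 0.18 SE, adjusted p = 0.0145). Of 14 genes of class I antigen processing and its interferon regulators, 9 were measured and 1 was called there, IFNGR2, a chain of the receptor for interferon gamma (0.88 ± 0.17 SE, adjusted p = 0.00717). In the other 4 comparisons, limma called 0 genes of the 3 lists. At unadjusted p under 0.05 these had 3, 2 and 2 genes at day 7 (partners, ubiquitin, class I), 0, 0 and 0 at day 14, 1, 1 and 3 between the days in NP, and 1, 1 and 2 for the interaction. The shares of all genes at that level were 30.4% at day 7, 6.34% at day 14, 16.5% between the days in NP and 14.5% for the interaction. At day 7 the medians of the 3 lists were 0.12 for the partners, 0.21 for ubiquitin and shuttles and -0.11 for class I processing. The class I list was mixed, with 6 of 9 estimates negative. The 3 positive ones were TAP1 (0.53), TAP2 (0.13) and TAPBP (0.12).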

How the data were processed

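The authors deposited log2 values per probe set, made with GCRMA per the submitters' processing notes, which also name limma without versions. GCRMA subtracts background, brings the arrays to 1 scale and combines the probes of a set. It pulls dim probe sets toward a floor, so changes of dim probe sets are the least certain.

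The table holds 24128 probe sets on 12 arrays, whose medians ran from 4.89 to 5.06, and 0 columns of other samples. After 112 control probe sets were left out, those above log2 4 on at least 3 arrays were kept (13449 of 24016). Gene names came from the platform annotation, and gene IDs matched all 39 proteasome genes with the same symbol. The pool number was taken from the titles; for 1 CDd14 array the replicate number in its title was used.

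A linear model with 4 group means was fitted with limma 3.58.1 in R 4.3.3 (8 residual and 2.13 prior degrees of freedom), with 5 contrasts and Benjamini-Hochberg adjustment over 13449 probe sets. A call is an adjusted p under 0.05, two-sided. The model was tested on simulated data. The pool numbers were checked as pairs by correlating the deviations from group means of same-numbered pools, which gave -0.03, 0.36 and 0.27 at day 7, 0.10, -0.23 and 0.16 at day 14, 0.24, -0.07 and 0.23 between the days in CD, and 0.16, 0.62 and 0.51 between the days in NP. Only between the days in NP was every value over 0.1. There, pool 3 of NPd14 with pool 1 of NPd7 gave 0.19, above the 0.16 of the pools numbered 1. The other differently numbered pairs ran from -0.54 to -0.01, and the labels state no pairing.

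Every gene is named. Values on each array are given for the immunoproteasome genes and, per comparison, for up to 4 genes past the threshold with the smallest p, or the 3 smallest where none pass; those for PSMA3, PSMB5 and PSMD13 in CD were added after they were seen. The genes and lists were chosen with earlier results of these data known. Protein and promoter sequences were not used here.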

Additional observations from a re-analysis of the deposited data

Results flagged for a closer look

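PSMF1 differed in opposite directions between CD and NP on the 2 days. CD minus NP was 0.24 at day 14, where every CDd14 pool lay above every NPd14 pool (10.95, 10.96 and 11.10 against 10.86, 10.66 and 10.77), and -0.39 at day 7, where every CDd7 pool lay below every NPd7 pool (10.66, 10.27 and 10.70 against 10.98, 10.85 and 10.96). Neither difference passed on its own (adjusted p = 0.756 at day 14 and 0.0934 at day 7 by limma), and the test of the difference between them gave 0.62 ± 0.19 (SE), with an adjusted p of 0.263 by limma. Without pool 3 of NPd14 the difference at day 14 was 0.24 (adjusted p = 0.82 by limma) and the interaction 0.63 (adjusted p = 0.212).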

How the results depend on the processing

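The number of proteasome genes called between the days in CD moved the most with the processing. Against 3 in the reported fit, it was 1 with no filter on low values, 5 with each array centred on its median, 5 (all lower) with only the 6 CD arrays in the fit, 6 (1 higher and 5 lower) with the pool number as a replicate block, and 0 to 8 when 1 array was left out. With no filter, more probe sets enter the adjustment, and the variance estimate changes too (SE of PSMF1 0.11, against 0.13 in the reported fit). The cause of these shifts was not tested in any setting. At day 7 the count was 0 in all settings except 1 without pool 3 of NPd14, a range of 0 to 1. In the other 3 comparisons it was 0 in all settings run. Between the days in NP, same-numbered pools correlated the most, though the labels state no pairing, and the blocked fit also called 0 genes. The block changed no call at day 7, day 14 or in the interaction. Between the days in CD the pools share only a number. Apart from the fits that left out 1 array, 282 recomputed values of the named genes kept direction and side of the threshold, 4 lost the call and 4 reversed. Most of these genes were not called in the reported fit. Changes of filter, variance model, replicate block or arrays outside a comparison left each estimate as it was. The mean over probe sets changes only genes with several of them. Direction could therefore turn in few of these settings, and the count of kept values says little about stability. In the 12 fits that left out 1 array, the genes called between the days in CD lost the call more often. PSMF1 was called in 8 of them, PSMD6 in 4 and PSMC3 in 3. With the mean over a gene's probe sets, PSMD6 became -0.13 at day 7 and 0.091 between the days in CD, since its dim probe set runs the other way. After quantile normalization PSMB8 became 0.0016 and PSMB9 0.036 between the days in CD, against -0.02 and -0.01 in the reported fit. The medians of cap and immunoproteasome kept their sign in all settings in the 4 pairwise comparisons. Changes of filter, variance model, replicate block or arrays outside a comparison left these medians as they were. Only the other settings therefore bear on the sign. The core median kept its sign except without pool 3 of NPd14, at day 14 (-0.01) and between the days in NP (0.03). The size of the core median at day 7 was lowest after quantile normalization (0.072, with 8 of 13 positive). In the interaction the core median, 0.00 in the reported fit, kept its sign in 14 of 19 settings (-0.18 to 0.13) and the cap median in 18 of 19 (-0.28 to 0.095, the highest without pool 2 of NPd14).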
